A study of Mus musculus with 11 samples.

Results

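Chromatin of the dentate gyrus was searched for regions that were open at E0 and no longer among the strongest open sites at E1. A region was taken when at least 5 of the 6 E0 libraries and at most 1 of the 5 E1 libraries called it, and 761 of 59298 regions met this rule. Accessibility was measured by ATAC-seq, in which a transposase cuts open DNA and leaves sequencing adapters there, so that peaks mark stretches with many cuts. All 11 libraries came from 8-week-old C57BL/6 mice, 1 mouse per library per the labels' protocols, after infection of the dentate gyrus with an adeno-associated virus (AAV). The virus delivered a short hairpin RNA, which was either aimed at c-Fos (shRNA-cFos) or a control (shRNA-Ctrl), so controls were infected as well. At E0 there were 3 shRNA-Ctrl and 3 shRNA-cFos libraries, and at E1 3 shRNA-Ctrl and 2 shRNA-cFos libraries. E0 is the state whose deposited lists are named sham. The labels do not spell out E1, which in the published study stands for mice shortly after electroconvulsive stimulation. The sources used here give neither the promoter of the shRNA nor the share of cells infected, and the peak lists do not show how far c-Fos was reduced.

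Nucleosomes are displaced from active promoters and enhancers by transcription factors, and an enhancer that loses its factors can become covered again and less accessible. In granule neurons, the main excitatory cells of the dentate gyrus, activity induces immediate early genes such as Fos, whose product pairs with Jun proteins to form AP-1 and binds enhancers. The dissected tissue holds several cell types, and in such bulk samples fewer cells of a type and less accessibility per cell cannot be told apart. The regions are given by position in the mm9 build of the files. Gene names, marker genes and DNA sequences in that build were not used here, so the tissue label was not checked against markers.

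The lists of the 11 libraries held from 25215 to 78377 peaks, and read depth is unknown. Each list was therefore shortened, in order of score, to the length of the shortest one on chromosomes 1 to 19 and X before regions were called. Peaks of any library that shared 1 bp were merged into 1 region, which counted as called in each library that had a peak there. The regions were thus chosen by the peak scores of all 11 libraries, E1 against E0, and values of that contrast are given as a description with no test. Within a shortened list the score is given as a percentile, where 100 stands for the highest score. The deposited names of shRNA-Ctrl E1 replicates 1 and 3, which are also the longest lists, lack a word that the other 9 carry, and no source used here explains it.

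The 761 regions made up 1.28% of all regions and 4.95% of the 15386 regions called in at least 5 E0 libraries. Those shares follow from the choice itself. All 6 E0 libraries called 189 of them and 5 of 6 called the other 572. No E1 library called 297, and 1 E1 library called 464. The strictest pattern, all 6 E0 and no E1 library, held 63 regions. The mirrored rule, at most 1 of 6 E0 and at least 4 of 5 E1 libraries, gave 2295 E1-gained regions, or 3.87% of all.

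**Figure D1:**
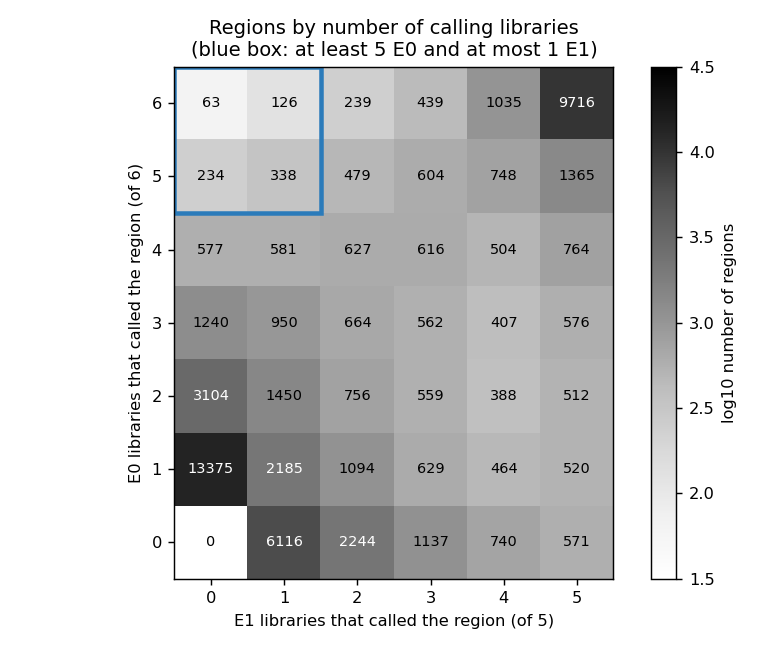
Number of regions by how many of the 6 E0 libraries (vertical axis) and of the 5 E1 libraries (horizontal axis) called them, with grey shade on a log10 scale. The boxed corner holds the 761 regions, in cells of 63, 126, 234 and 338, while 9716 regions were called in all 11 libraries.

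The neighbouring cells of the grid show where the limits lie. Just outside, 1158 regions were called in 4 of 6 E0 and at most 1 E1 library, and 718 in at least 5 E0 and exactly 2 E1 libraries. Their medians of the mean E0 percentile were 31.0 and 41.2. Just inside, the 572 regions with 5 E0 calls had a median of 34.9 and the 464 with 1 E1 call a median of 37.4. The values on either side of the limits thus overlapped widely.

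The region with the highest E0 scores lay at chr15:25643162-25644351 and was 1190 bp wide. Its percentiles were 71.5, 80.2 and 67.2 in shRNA-Ctrl E0 and 80.3, 84.8 and 81.2 in shRNA-cFos E0, a mean of 77.5 ± 6.7 (SD, n = 6). At E1 it was called in shRNA-cFos E1 replicate 2 alone, at 21.6, below every E0 value. The lists as deposited held lower-ranked peaks on it in shRNA-Ctrl E1 replicates 1 and 3 and in shRNA-cFos E1 replicate 1, at ranks 29021, 28290 and 26360. In the E0 libraries its ranks ran from 3817 to 8256. A neighbour 18084 bp away, chr15:25662436-25663439, was also among the 761, with 5 E0 calls and 1 E1 call.

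The 20 regions with the highest mean E0 percentile reached from 59.0 to 77.5 and were 635 to 1995 bp wide. All 6 E0 libraries called 9 of them. Of the 20, 12 had their single E1 call in shRNA-cFos E1, 5 had it in shRNA-Ctrl E1, and 3 had none. The region at chr12:70890666-70892512 had E0 percentiles of 61.2, 69.3 and 72.2 in shRNA-Ctrl and 43.9, 68.3 and 73.6 in shRNA-cFos, and was called at 24.9 in shRNA-Ctrl E1 replicate 3. At chr7:51435764-51436484 the E0 percentiles were 68.4, 65.0 and 52.4 in shRNA-Ctrl and 75.8 and 69.8 in shRNA-cFos E0 replicates 1 and 3. No E1 library called it, and neither did shRNA-cFos E0 replicate 2, whose deposited list held it at rank 70442. E1 lists held it at ranks from 26016 to 67914 in 4 of 5 libraries, below the other 5 E0 libraries. At chr4:98301633-98302647, 5 E0 libraries called the region between 55.5 and 71.7, and the single E1 peak in any deposited list was that of shRNA-cFos E1 replicate 2, at 22.3.

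Among the 63 regions with all 6 E0 calls and no E1 call, the highest mean percentile was 58.5, at chr13:3477115-3478065. Its values were 70.3, 48.1 and 60.8 in shRNA-Ctrl E0 and 50.7, 44.3 and 77.0 in shRNA-cFos E0. The next lay at chr15:27024760-27025736, with 48.6, 62.9 and 59.2 in shRNA-Ctrl E0 and 67.2, 52.6 and 57.9 in shRNA-cFos E0, the tighter set of values of the pair. At chr15:12570424-12571175 shRNA-Ctrl E0 replicate 1 was low, at 17.3, while the other 5 lay between 57.3 and 74.5. This last region had 1 deposited E1 peak, at rank 33627 in shRNA-cFos E1 replicate 2. The remaining 7 of the first 10 lay on chromosomes 18, 15, 2, 4, 12, 6 and 4, and their mean percentiles ran from 49.3 to 54.4.

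**Figure D2:**
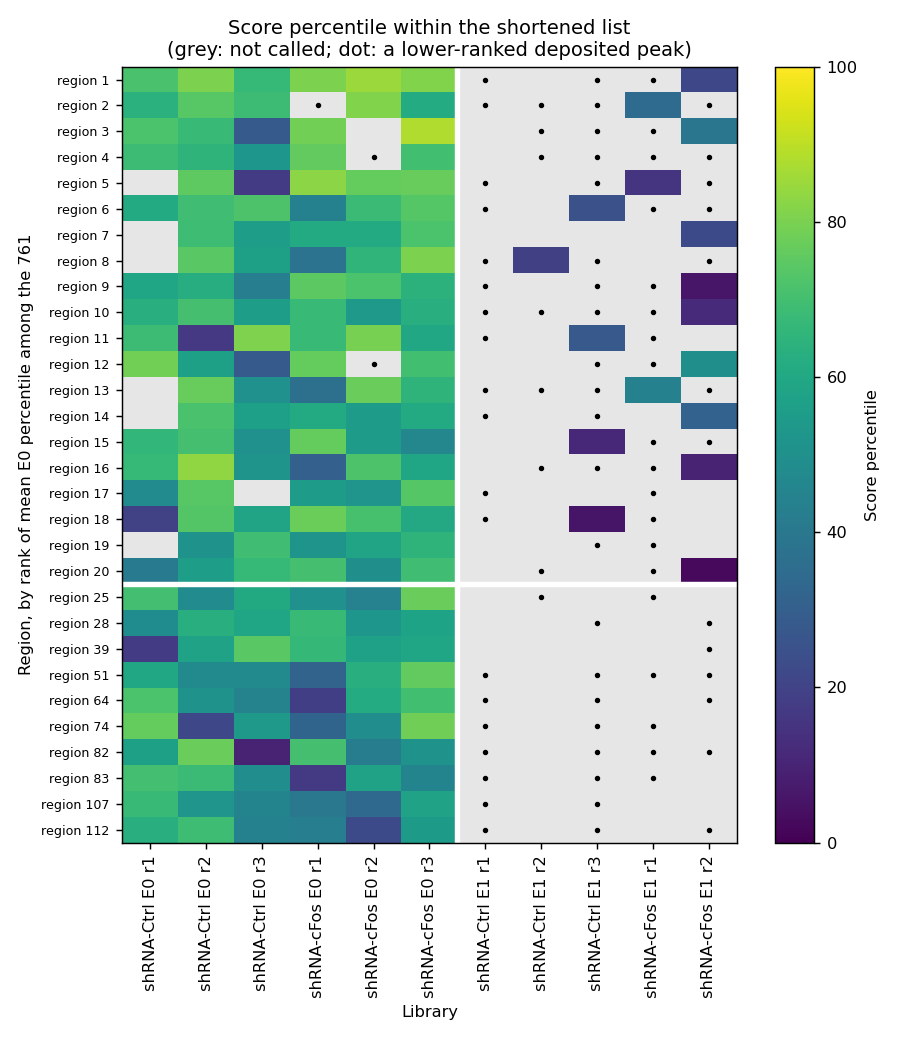
Score percentile (colour) of the 20 regions with the highest mean E0 percentile (upper block) and the first 10 of those called in all 6 E0 and no E1 library (lower block), in columns of 1 library each. Grey cells were not called in the shortened list, and a dot marks a lower-ranked peak in the deposited list. Most grey E1 cells carry a dot.

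Few of the 761 regions were without any peak at E1. In the lists as deposited, 754 of 761 (99.1%) had a peak in at least 1 E1 library, 627 (82.4%) in at least 3, and 129 in all 5. The 754 include the 464 regions with 1 E1 call, which the rule allowed. Peaks ranked below the shortened lists were present in an E1 list at 747 regions (98.2%). These shares were not set beside the same shares over all regions. Most of the 761 thus kept a peak in several E1 lists, and the name closed is not used for them. Whether they were less accessible at E1 was not tested. They are called E0-ranked regions here. With peaks required to cover 50% of the region, 70 regions (9.2%) had no E1 peak in place of 7.

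The 7 E0-ranked regions without a deposited peak in any E1 list were picked out after their values were seen. At chr1:91864634-91865407 all 6 E0 libraries had a peak, at percentiles of 44.7, 53.5 and 12.8 in shRNA-Ctrl and 44.0, 55.4 and 39.1 in shRNA-cFos. It was the single region of the 7 called in all 6. The others lay at chrX:73471431-73472206, chr7:137835796-137837264, chr15:62403176-62403806, chr17:80453179-80453756, chr14:68160119-68160672 and chr3:5467633-5468271. Their mean E0 percentiles, from 23.2 to 40.6, were in the lower and middle range of the E0-ranked regions.

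The share of E0-ranked regions with a peak rose with list length, and E1 libraries lay below E0 libraries at each length compared, up to 74432 peaks. With the 20000 highest-scoring peaks, E0 libraries called 63.9% to 70.2% of the 761 and E1 libraries 1.8% to 12.9%. At 33134 peaks the lists long enough were those of shRNA-cFos E0 replicates 1 and 2, with 93.7% and 92.0%, and all 5 E1 lists. The shRNA-Ctrl E1 lists then held 29.2%, 28.3% and 43.1%, and the shRNA-cFos E1 lists 44.8% and 51.4%. At 40627 peaks shRNA-cFos E0 replicate 2 stood at 94.1%, against 50.2% and 61.0% in shRNA-Ctrl E1 replicates 1 and 3 and 64.0% and 66.4% in shRNA-cFos E1. At 74432 peaks the gap had narrowed to 97.5% in the E0 list against 81.6% and 89.9% in the 2 shRNA-Ctrl E1 lists. The bend of the curves at the shortened length, and the gap between E0 and E1 up to it, were largely made by the rule, which used that length. At longer lengths the gap is that of regions chosen by the same contrast and is a description.

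**Figure D3:**
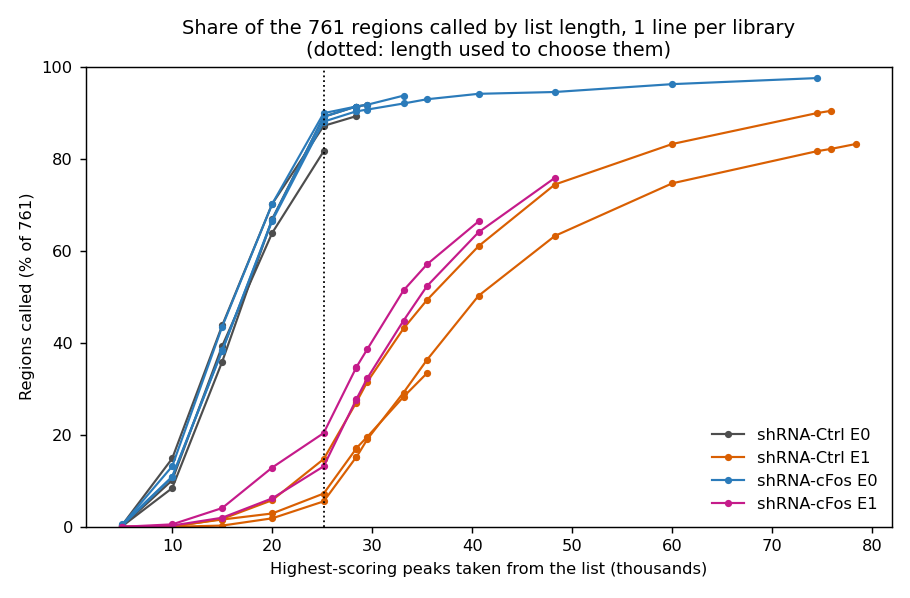
Share of the 761 regions (vertical axis, %) with a peak among the highest-scoring peaks of a list (horizontal axis, number of peaks in units of 1000), 1 line per library and 1 colour per group. E0 lines reach 81.6% to 89.9% at the dotted length that chose the regions, and E1 lines 5.5% to 20.4%.

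As deposited, the share with a peak was 81.6%, 89.2% and 91.7% in shRNA-Ctrl E0 and 93.7%, 97.5% and 91.3% in shRNA-cFos E0. It was 83.2%, 33.4% and 90.4% in shRNA-Ctrl E1 and 75.8% and 66.4% in shRNA-cFos E1. So, with any overlap counted, the 2 longest E1 lists overlapped the E0 range and the 3 others did not. With peaks required to cover 50% of the region, the E0 shares ran from 33.6% to 94.7%. The E1 shares were then 39.3%, 17.3% and 68.2% in shRNA-Ctrl and 63.6% and 52.0% in shRNA-cFos. Only shRNA-Ctrl E1 replicate 2 then lay outside the E0 range. With any overlap its share was again the lowest, at 33.4% (Wilson 95% interval 30.1% to 36.8%, counting error only). Its list held 35474 peaks on the chromosomes used. Cut to that length, the lists of shRNA-Ctrl E1 replicates 1 and 3 held 36.3% and 49.3%. The list of shRNA-cFos E0 replicate 1 was shorter (33134 peaks) with its 93.7%, but high E0 shares were asked for by the rule. At 389 regions shRNA-Ctrl E1 replicates 1 and 3 both had a peak and replicate 2 had none. The lists of replicates 1 and 3 are those with the other name and greater length, whose part in this was not tested. Other regions called in at least 5 E0 libraries had a deposited peak at 93.5% to 99.7% in the E1 lists.

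The 3 longest lists allow ranks to be set side by side at one length of 74432 peaks. In shRNA-cFos E0 replicate 2, 742 E0-ranked regions had a peak, with a median rank of 16648 (quartiles 12684 and 21416). In shRNA-Ctrl E1 replicates 1 and 3, 621 and 684 had one, with median ranks of 37277 and 33615. Of 581 regions with a peak in all 3, 521 (89.7%) ranked lower in both E1 lists than in the E0 list. The rule asked for high ranks at E0 and low ones at E1, so this direction follows largely from the choice. The best peak on a region was also narrower in these E1 lists, with a median of 394 and 487 bp against 742 bp. Across all libraries this width ranged from 374 bp in shRNA-Ctrl E0 replicate 1 to 742 bp, and E1 libraries lay within the range. Other regions recurrent at E0 had median ranks of 7517 in the E0 list and 8831 and 7875 in the E1 lists.

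**Figure D4:**
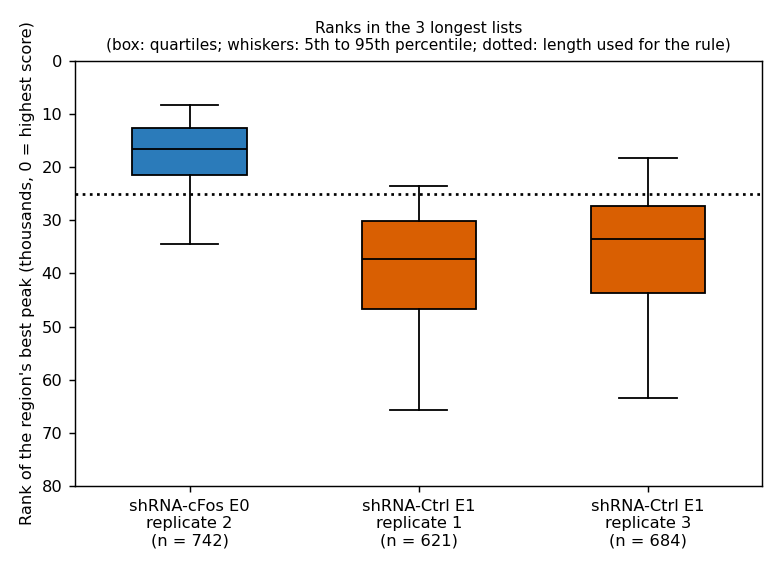
Rank of the best peak on each of the E0-ranked regions (vertical axis, in units of 1000, highest score at the top) in the 3 longest lists, each shortened to 74432 peaks. Boxes are quartiles around the median and whiskers run from the 5th to the 95th percentile. The E0 median of 16648 lies above the dotted line of the shortened length and both E1 medians, 37277 and 33615, lie below it. These sides were largely set by the rule.

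To read the pattern in a library whose calls had no part in the choice, the rule was applied to the other 10 libraries and the share called was taken in the one left out. The shortened length was kept, so shRNA-Ctrl E0 replicate 1, the shortest list, still set it when left out. Regions chosen in this way were called at 48.5%, 59.3% and 59.1% in shRNA-Ctrl E0 and at 61.0%, 58.2% and 63.7% in shRNA-cFos E0. They were called at 25.1%, 25.6% and 38.8% in shRNA-Ctrl E1 and at 40.1% and 48.2% in shRNA-cFos E1. All 6 E0 values lay above all 5 E1 values, though the lowest E0 and the highest E1 value were nearly equal. The readings share most of the libraries that chose the regions, so they are not independent of one another and are a description. In the held-out E0 libraries the rule needed 4 of the 5 others and in the held-out E1 libraries 5 of 6, so the 2 series of values rest on slightly different choices. Regions with 4 to 6 calls (E0) or 5 to 7 calls (E1) in the other libraries that were not chosen went the other way, at 32.6% to 43.9% in E0 and 55.8% to 67.8% in E1. Taking out the chosen regions, with many E0 and few E1 calls, tilts this set toward E1 calls. Its direction is therefore no independent contrast.

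E0-ranked regions were of middle strength and width. Their mean E0 percentile had a median of 36.3 (quartiles 29.6 and 44.2), against 67.1 for the 14625 other regions called in at least 5 E0 libraries and 31.5 for the 6950 other regions called in 5 to 7 libraries. The width had a median of 821 bp, against 1266 bp, 783 bp and, for all regions, 665 bp. Scores on a region also spread more between E0 libraries than at other recurrent regions, with a median SD of 16.9 percentile points against 10.1. Regions just outside the rule had a like spread, with 17.2 for those with at least 5 E0 and 2 E1 calls and 16.0 for those with 4 E0 and at most 1 E1 call, so it was not particular to the E0-ranked regions. The widest was chrX:166415406-166418804, of 3399 bp, with E0 percentiles of 41.1, 53.4 and 39.7 in shRNA-Ctrl and 14.2 and 28.3 in shRNA-cFos E0 replicates 1 and 3. The next were chr10:57503104-57505602 (2499 bp) and chr3:82350693-82353108 (2416 bp).

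The regions were scattered over the genome. The 761 fell into 737 windows of 100 kb, of which 22 held 2 regions and 1 held 3. That window, chr9:108400001-108500000, held chr9:108480037-108481476, chr9:108490009-108490723 and chr9:108499229-108500362 among 7 regions. Each of the 3 had a deposited peak in 4 of the 5 E1 lists, all but that of shRNA-Ctrl E1 replicate 2. The next 4 windows, with 2 of 3 regions each, were chr10:61500001-61600000, chr13:111500001-111600000, chr16:92100001-92200000 and chr3:82300001-82400000. The last holds the third widest region and chr3:82343452-82344456, 6236 bp away, both called in 6 E0 and no E1 library. Another E0-ranked region lay within 100 kb of 89 of the 761 (11.7%), and of 8.23% of other regions recurrent at E0 and 8.1% of all regions. For regions just outside the rule the share was 10.2% with 4 E0 and at most 1 E1 call and 9.33% with at least 5 E0 and 2 E1 calls.

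By chromosome, E0-ranked regions made up between 2.84% and 6.34% of the regions called in at least 5 E0 libraries. The highest shares were on chromosomes 15 (42 of 662, 6.34%), 1 (74 of 1168, 6.34%) and 4 (60 of 974, 6.16%). The lowest were on chromosomes 19 (9 of 317, 2.84%), 7 (20 of 655, 3.05%) and 9 (22 of 641, 3.43%). A region called in all 11 libraries lay within 10 kb of 78 E0-ranked regions (10.2%), against 8.68% of other recurrent and 7.85% of all regions. Within 5 kb the share was 4.73% (Wilson 95% interval 3.44% to 6.48%, counting error only), against 3.06% and 2.80%. Within 50 kb it was 40.1%, against 44.5% and 38.4%, and the median distance was 74.0 kb, against 59.8 kb and 74.3 kb. The share was thus above both others at the short distances and between them at 50 kb, with no test made.

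The shRNA groups can be compared at E0, a contrast the rule did not use directly. All regions tested had calls in at least 5 of 6 E0 libraries, hence in at least 2 of 3 of each shRNA group, so regions called under 1 shRNA alone were left out before the test and could not be found. In limma, no region of 15386 had a score percentile that differed between shRNA-cFos E0 and shRNA-Ctrl E0 at an adjusted p under 0.05 (0% called; smallest adjusted p = 0.324), and none of the 761 did (smallest adjusted p = 0.355). An unadjusted limma p under 0.05 was found for 7.7% of all regions tested and for 79 of the 761 (10.4%). Of these 79, 35 were higher and 44 lower in shRNA-cFos. Over all 15386 regions tested, 565 (3.67%) were higher and 619 (4.02%) lower at the same limit. The difference, shRNA-cFos minus shRNA-Ctrl, had a median of -0.57 percentile points over the E0-ranked regions (quartiles -12.4 and 10.8) and of -0.09 over all regions tested. Its standard error had a median of 12.2 points there and 7.43 over all, so shifts of the size of the quartiles were not detectable. Values of the 572 regions with 5 E0 calls rest on 5 libraries. The region with the smallest p, chosen after the values were seen, was chr3:82814881-82815865. Its percentiles were 14.7 and 5.99 in shRNA-Ctrl E0 replicates 2 and 3 and 59.0, 62.2 and 70.3 in shRNA-cFos E0 (difference 53.5 ± 5.39, SE; limma adjusted p = 0.355, with the uncalled shRNA-Ctrl E0 replicate 1 left out).

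**Figure D5:**
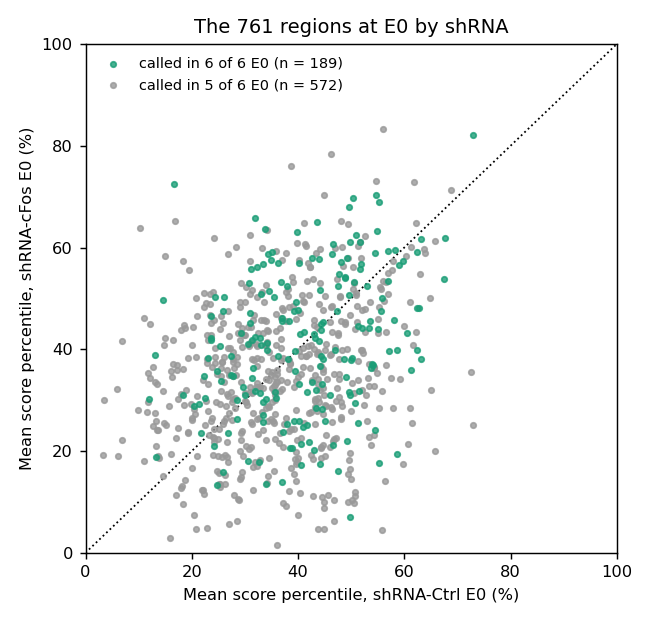
Mean score percentile of each E0-ranked region in shRNA-Ctrl E0 (horizontal axis) and shRNA-cFos E0 (vertical axis), green for the 189 called in all 6 E0 libraries and grey for the 572 called in 5. Points lie on both sides of the dotted line of equality, 368 above it and 393 below.

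The single missing E0 call and the single E1 call were not spread evenly over libraries. The missing call was that of shRNA-Ctrl E0 replicate 1, the shortest list, in 140 of 572 regions (24.5%), close to its 23.9% of the other regions with 5 of 6 E0 calls. It was that of shRNA-Ctrl E0 replicate 2 in 98 (17.1%), against 25.2% of the others, and that of each further E0 library in 77 to 91. In shRNA-Ctrl E0 as a whole it lay in 56.1%, against 62.2% of the 3196 others. The single E1 call lay in shRNA-cFos E1 replicates 1 and 2 in 100 and 155 of 464 regions, and in shRNA-Ctrl E1 replicates 1, 2 and 3 in 42, 55 and 112. The 2 shRNA-cFos libraries thus held 55.0% of these calls, against 36.2% of the single E1 calls at the 11282 regions outside the recurrent E0 set. Of those 11282 regions, 6116 had no E0 call, so the single E1 call was the only call on them. The comparison set is thus mostly made of regions seen in a single list, unlike the E0-ranked regions with their 5 or 6 E0 calls. Whether the difference in shares comes from this was not tested. By library the share was above that of this set in both shRNA-cFos E1 libraries and in shRNA-Ctrl E1 replicate 3. Shares were 21.6% against 15.3% and 33.4% against 20.9% in shRNA-cFos E1 replicates 1 and 2, and 24.1% against 16.1% in shRNA-Ctrl E1 replicate 3. In shRNA-Ctrl E1 replicates 1 and 2 they were lower, at 9.05% against 22.3% and 11.9% against 25.4%. When called at E1, the median percentile was 13.7, 16.7 and 16.1 in shRNA-Ctrl and 18.9 and 24.0 in shRNA-cFos, against 35.2 to 40.6 in the E0 libraries. At the shortened length the share called at E1 overlapped between the 2 shRNA groups (5.5% to 14.7% in shRNA-Ctrl, 13.1% and 20.4% in shRNA-cFos). At 20000 peaks it did not overlap (1.8% to 5.8% against 6.2% and 12.9%). Nor did it at 33134 peaks (28.3% to 43.1% against 44.8% and 51.4%). Lists as deposited, of unequal length, overlapped (33.4% to 90.4% against 66.4% and 75.8%). The median percentile did not overlap. With 3 libraries against 2, and E1 calls used by the rule, these differences were not tested.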

How the data were processed

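ATAC-seq peak lists of 11 libraries were used, each from 1 mouse per the labels' protocols. Per the submitters' processing notes reads were aligned with Bowtie2 to mm9. The deposited peak names carry the name of the caller MACS. Its version and settings, and any read filter or transposase shift, are not given in the sources used here. Per the deposited lists each peak has a score from 50 to 3100, on an unstated scale, so it was used to rank peaks within a list. Read depth is unknown, and list length can follow depth.

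Peaks off chromosomes 1 to 19 and X (554) were left out, lists were cut to the shortest length in score order (ties in file order), and calls were made as described above. The percentile of a peak is its average rank in the shortened list, and a region takes its best peak. shRNA groups at E0 were compared with limma 3.58.1 (R 4.3.3) on percentiles of regions called in at least 5 E0 libraries, uncalled values missing, with Benjamini-Hochberg adjustment over all regions tested. E1 against E0 was not tested, since it chose the regions. Scripts were tested on simulated data. Regions named are the first 20 by mean E0 percentile, the first 10 with 6 E0 and no E1 calls (all counted, some named), the 3 widest, and 5 windows (100 kb) holding the most of them. The members and lists were chosen with earlier results of these data known. The held-out reading, list-length curves and rank comparisons were added after seeing the data. Gene tables of build GRCm38 were not used, because on 10 of 20 chromosomes some peaks had positions past the last gene listed. Alternatives were other list lengths, a score minimum, merging, coverage, chromosomes, call limits, a replicate block and each library left out. Python 3.11.15, numpy 2.4.6, pandas 2.3.3, scipy 1.17.1 and matplotlib 3.10.9 were used.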

Additional observations from a re-analysis of the deposited data

How the results depend on the processing

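The number of E0-ranked regions, 761, depended on list length and call limits. It was 96 with lists as deposited, 710 and 560 with 20000 and 15000 peaks, 81 with a score of at least 100, and 368 with 50% of a region covered. With 6 of 6 E0 and 0 of 5 E1 calls it was 63, with at least 4 E0 calls 1919, and with at most 2 E1 calls 1479. Which regions were chosen moved as well: 35 of the 761 overlapped the choice from lists as deposited, 297 that from 20000 peaks and 63 that from 15000 peaks. Leaving out 1 library gave 949 to 1281 regions. Fewer E0 calls are needed without an E0 library, and 1 fewer library can exceed the E1 limit without an E1 library. Changes over 1.5-fold came without shRNA-Ctrl E0 replicate 1 (1281) or 3 (1149), shRNA-cFos E0 replicate 2 (1143) or shRNA-cFos E1 replicate 2 (1169). Chosen after seeing the data, leaving out the 3 longest lists gave 2008, with at least 4 of 5 E0 and at most 1 of 3 E1 calls. Leaving out the 2 lists without the added word, also chosen after seeing the data, gave 1491. The limits there were at least 5 of 6 E0 and at most 1 of 3 E1 calls. With fewer E1 libraries and 1 call still allowed, both counts can rise by the rule itself. The mirrored rule found more regions than this one in each alternative that changed the lists, peaks, merging, coverage, chromosomes or libraries, and was not recomputed for the changed call limits. An E1 peak ranked below the shortened lists was found for 84.0% of regions when it had to cover 50% of the region, and a region called in all 11 libraries lay within 5 kb of 4.73% (all regions 2.80%) and within 50 kb of 40.1% (all regions 38.4%). The shRNA test at E0 called 0 regions with the replicate block, 1 of 15386 and none of the 761 with log2 scores, and 0 in each other alternative. Same-numbered E0 libraries of the 2 shRNA groups did not deviate together (correlations 0.0443, -0.0255 and -0.0619 across 11618 regions), so numbers were not taken as pairs. With the block an unadjusted limma p under 0.05 was found for 94 of the 761 in place of 79. The median shRNA difference over the 761 changed sign among alternatives, from -1.68 to 15.2 percentile points, the last with percentiles from lists of unequal length. Since depth is unknown, no limit of detection can be set for a region without a peak.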

Other observations

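Some E0-ranked regions lay close to regions with the opposite pattern. An E1-gained region was within 10 kb of 32 of the 761 (4.2%), of 1.89% of other regions recurrent at E0, of 2.69% of other regions called in 5 to 7 libraries and of 2.58% of all regions. Regions just outside the rule had nearly the same share, 3.63% with 4 E0 and at most 1 E1 call and 3.48% with at least 5 E0 and 2 E1 calls, so the closeness was not particular to the E0-ranked regions. At chr1:140045172-140046029, the tenth by mean E0 percentile, the nearest E1-gained region was 3583 bp away. This region had percentiles of 62.9, 70.6 and 56.0 in shRNA-Ctrl E0 and 67.6, 54.0 and 63.2 in shRNA-cFos E0, and was called at E1 in shRNA-cFos E1 replicate 2 alone, at 12.2. At chr14:88969808-88970512, called in 5 E0 and no E1 library, it was 3804 bp away. Within 100 kb the shares no longer differed in this direction, at 18.8% for the E0-ranked, 18.8% for other recurrent and 21.5% for all regions.

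In the lists as deposited, the E1-gained regions had a peak in 7.54% to 25.6% of cases in 5 of the 6 E0 lists. These lists are short, with few or no peaks below the shortened length, so their shares are largely set by the rule. The long list of shRNA-cFos E0 replicate 2 held a peak on 70.6% of the 2295, within the 33.4% to 90.4% that the E1 lists held of the E0-ranked regions.

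With all chromosomes used, 3 regions on chromosome Y met the rule, at chrY:1592983-1593507, chrY:1634876-1635230 and chrY:2566528-2566997.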
